A study of Mus musculus with 12 samples.

Results

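Clock genes were followed through 4T1-LUC mouse mammary tumours from 4 groups of BALB/c mice: Per1, Per2, Per3, Cry1, Cry2, Nr1d1, Nr1d2, Dbp, Tef and Bhlhe41. They were chosen by name as the 10 members among the 21899 genes of the deposited table, and all 10 passed the filter on low counts, as did 13638 genes in all. The choice was made with earlier results of these data known. Counts and medians over the 10, set beside those of all genes below, are therefore descriptions and not tests of the list. 4T1 is an established mammary carcinoma line of BALB/c origin. Every group carried 4T1-LUC tumours after injection under the skin of the chest and abdominal wall at 4 to 6 weeks of age, with 5 mice per group per the labels, and every group was gavaged with 200 µL each afternoon. The control group received corn oil, the curcumin group 100 mg/kg curcumin in corn oil, the swimming group corn oil followed by 30 min of swimming, and the combination group curcumin followed by 30 min of swimming. Each group has 3 RNA sequencing libraries, named here by group and replicate. The labels do not say whether the libraries of a group came from separate tumours, and the p-values then reflect only how far these samples differ, which may be technical. Neither the hour of sampling nor the time since the last swim is in the labels, and a difference in the phase of the clock at sampling cannot be told apart from a difference in the level of a clock gene.

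The mammalian clock is a transcriptional feedback loop. CLOCK and BMAL1 (gene Arntl) bind E-boxes in promoters and switch on the Per and Cry genes, whose proteins return to the nucleus and block CLOCK and BMAL1. A further loop runs through the nuclear receptors REV-ERBα and REV-ERBβ (Nr1d1 and Nr1d2), which repress Arntl and Clock, against the ROR receptors, which activate them. DBP and TEF are PAR bZIP factors that carry the rhythm to output genes through D-boxes, and BHLHE41 (DEC2) competes with CLOCK and BMAL1 at E-boxes. In peripheral tissues Per1 also responds directly to glucocorticoids and to cAMP, and is used as an early sign of such input.

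The promoters of 4 members are shown because each holds a known clock element: an E-box in the 3 members that passed the test against control (Per1, Bhlhe41 and Tef), and D-boxes, the element bound by DBP and TEF, in Per3. Each is the 250 bases before a RefSeq start site on build GRCm38.p6, 5′ to 3′ on the gene's own strand, with the motif in capitals. The windows are chr11:69098699-69098948 (plus strand) for Per1, chr6:145865421-145865670 (minus) for Bhlhe41, chr15:81802423-81802672 (plus) for Tef and chr4:151044666-151044915 (minus) for Per3.
Per1: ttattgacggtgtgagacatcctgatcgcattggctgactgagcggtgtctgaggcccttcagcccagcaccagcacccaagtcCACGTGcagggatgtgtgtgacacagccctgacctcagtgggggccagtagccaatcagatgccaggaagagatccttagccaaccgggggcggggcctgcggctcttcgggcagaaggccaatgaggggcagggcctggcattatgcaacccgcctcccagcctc
Bhlhe41: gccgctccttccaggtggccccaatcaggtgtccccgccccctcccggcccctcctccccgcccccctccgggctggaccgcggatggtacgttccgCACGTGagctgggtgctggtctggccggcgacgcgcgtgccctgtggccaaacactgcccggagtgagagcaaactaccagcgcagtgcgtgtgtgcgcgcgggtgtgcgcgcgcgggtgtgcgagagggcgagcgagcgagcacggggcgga
Tef: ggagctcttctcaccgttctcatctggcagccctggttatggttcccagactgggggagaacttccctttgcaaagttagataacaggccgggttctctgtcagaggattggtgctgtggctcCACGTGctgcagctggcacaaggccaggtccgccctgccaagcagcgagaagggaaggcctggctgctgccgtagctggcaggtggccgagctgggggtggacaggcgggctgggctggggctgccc
Per3: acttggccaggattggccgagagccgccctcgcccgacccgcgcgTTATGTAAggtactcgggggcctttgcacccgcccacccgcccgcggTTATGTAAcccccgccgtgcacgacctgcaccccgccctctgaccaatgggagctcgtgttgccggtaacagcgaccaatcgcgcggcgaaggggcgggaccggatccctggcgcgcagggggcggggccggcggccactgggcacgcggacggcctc
The E-box CACGTG began 166 bases before the first of 2 Per1 start sites, 153 before that of Bhlhe41 and 127 before the first of 2 Tef start sites. The D-box TTATGTAA stood in Per3 at 205 and 158 bases before the start. Among the 9 members with a window, 4 held CACGTG (Cry1 as the fourth), 3 held the variant CACGTT or its reverse complement AACGTG (Cry1, Cry2 and Nr1d1), and 1 held the D-box. The 9 members had 11 windows, and a member was counted if any of its windows held the motif, unlike the shares of single windows that follow. The window of the other Per1 start site held none of the motifs searched. Of 32536 distinct windows of this length, 6.04% held CACGTG, 3.87% the variant and 0.811% the D-box, searched on both strands. The cAMP response element TGACGTCA, the palindromic glucocorticoid response element, the ROR element TAGGTCA and the D-box form TTACGTAA were found in none of the 9 members' windows, which says only that these letters are not there. They stood in 1.56%, 0.00922%, 2.24% and 0.114% of all windows.

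Library totals ran from 15069348 to 17278826 counts. The combination libraries were the most alike, with a coefficient of biological variation of 6.47%, against 12.4% for curcumin, 16.4% for swimming and 26.6% for control. Control 2 stood apart, with a correlation of 0.9611 to the mean of the other controls and 0.9778 to that of the swimming libraries. Another 4 libraries were also closer to the mean of another group than to that of their own: control 1 and control 3 to curcumin (0.9863 and 0.9878, against 0.9759 and 0.9813), and swimming 2 and swimming 3 to control (0.98 and 0.9826, against 0.979 and 0.9809). The 6 epithelial markers summed to between 2190 and 2850 CPM (counts scaled to library size) in every library, and markers of host cells were present too, with 5 macrophage markers at 430 to 1330 CPM. In such bulk samples fewer cells of a type and less RNA per cell cannot be told apart. The 5 endothelial markers summed to 117 to 188 CPM in swimming, 227 to 325 in control, 239 to 248 in curcumin and 347 to 407 in combination. The 6 neutrophil markers were at 38.1 to 39.8 CPM in combination against 60.2 to 250 in control, 55.9 to 151 in curcumin and 117 to 123 in swimming. The 6 adipocyte markers were at 23.6 to 26.3 CPM in combination and at 6.42 to 14.2 in the other 9 libraries, with Pck1 at 0 in all 3 controls. Most of these sums came from Fabp4 (15.6 to 20.1 CPM in combination and 6.36 to 14 in control). In swimming against control, 3 of the 4 adipocyte markers tested were positive and Fabp4 was negative. Of the 4, 3 had an unadjusted p under 0.05 in edgeR, where 13% of all genes did, and 0 were called. The 5 fibroblast markers summed to 3880 to 4090 CPM in combination, 1300 to 2550 in swimming, 899 to 3070 in control and 3180 to 3940 in curcumin, and the 6 skeletal muscle markers to 54.1 to 59.1, 18 to 153, 9.41 to 361 and 268 to 351 CPM. Mitochondrially encoded genes took 4.86 to 6.1% of counts in combination, 4.36 to 4.87% in swimming, 2.96 to 4.3% in control and 3.34 to 4.06% in curcumin. The part of these cell mixtures and of the mitochondrial share in the results on clock genes was not tested.

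In FPKM (counts per gene length and library total), which allows genes to be compared, Nr1d2 (18.0 ± 2.64, SD over the 12 libraries) and Per1 (17.6 ± 12.6) had the highest levels. Nr1d1 (9.87), Tef (7.04), Per2 (6.24), Bhlhe41 (5.13), Cry1 (4.87), Per3 (3.29), Cry2 (2.59) and Dbp (2.18) followed. Neighbours in this order were not always separated: Nr1d2 was above Per1 in 7 of 12 libraries and Bhlhe41 above Cry1 in 6 of 12, whereas Cry1 was above Per3 in 11 of 12. Per1 varied most, from 5.68 to 43.6 FPKM or 7.68-fold. Dbp came next at 4.29-fold (0.752 to 3.23 FPKM), and Nr1d2 varied least at 1.63-fold (14 to 22.8 FPKM).

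**Figure D1:**
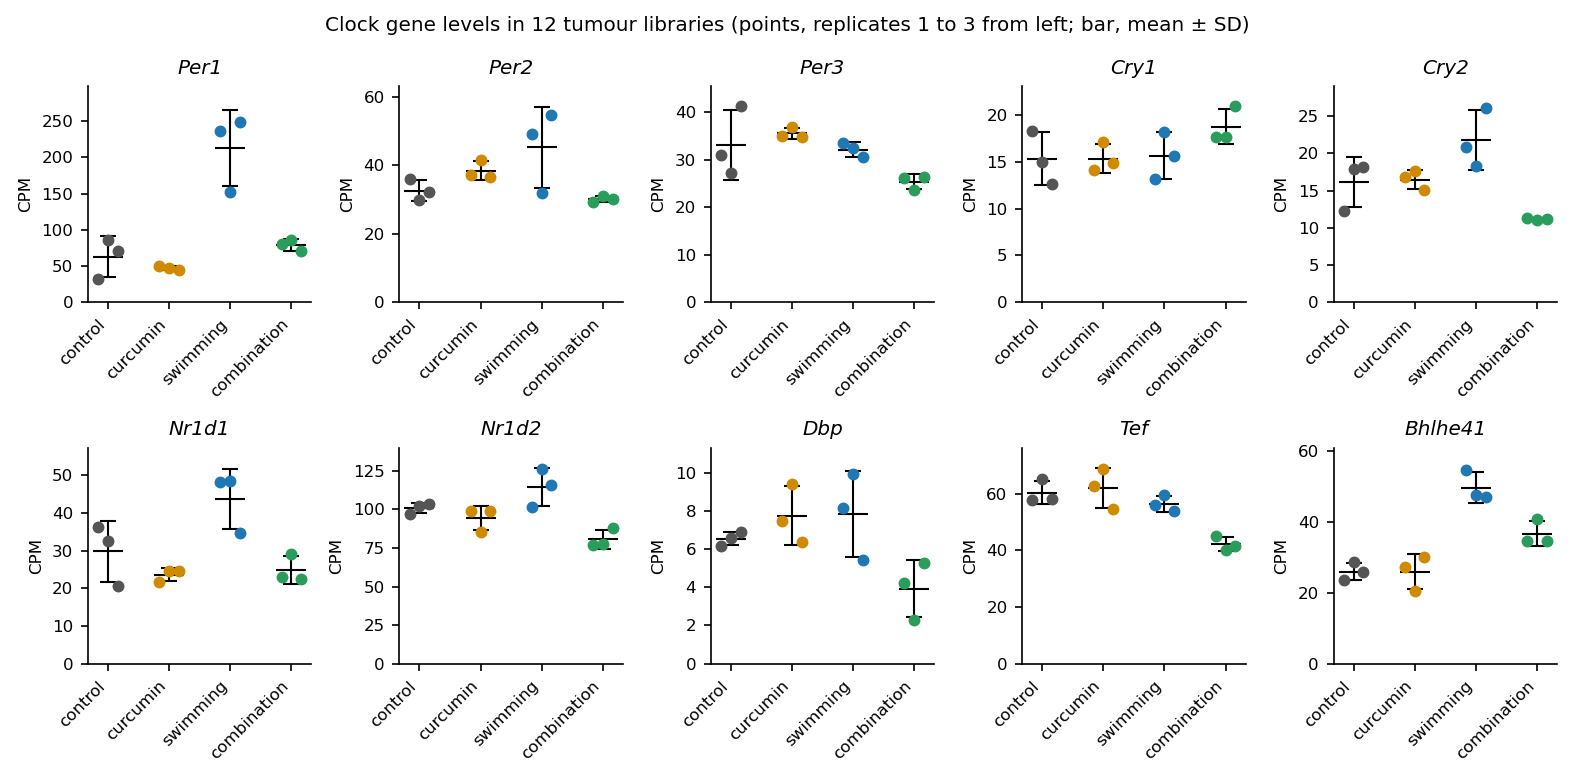
Level of each of the 10 clock genes in CPM (vertical axis, from 0) in the 4 groups (horizontal axis). Points are libraries, replicates 1 to 3 from left to right, and bars give mean ± SD. The 3 swimming libraries stand above all others for Per1 and Bhlhe41, and the 3 combination libraries below all others for Per3, Cry2, Dbp and Tef.

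Swimming alone was compared with control to see what exercise did to the clock genes. Per1 and Bhlhe41 rose, which makes 2 of the 10 members called higher at an adjusted p of 0.05 or below (edgeR), where 0.308% of all genes tested were called and 0.154% were called higher. The other 8 did not pass, and their log2 changes ran from -0.10 (Tef) to 0.55 (Nr1d1). The median over the 10 was 0.35 on the log2 scale, against -0.01 over all genes tested. The libraries of the groups did not overlap in CPM for 3 members, each higher after swimming (Per1, Cry2 and Bhlhe41), a separation seen for 13.1% of all genes and, with higher values, for 5.83%. In FPKM those of Cry2 overlapped.

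Curcumin alone left no member called. In edgeR 0 of 10 passed, 0 had an unadjusted p under 0.05, and DESeq2 and limma voom also called 0, while 0% of all genes tested were called and 10.9% had an unadjusted p under 0.05. The widest 95% interval was that of Per1, whose log2 change of -0.42 had bounds of -1.08 and 0.24, and the narrowest were those of Nr1d2 (-0.31 to 0.11) and Tef (-0.18 to 0.25). Per2 was the only member whose groups did not overlap, with 36.6 to 41.6 CPM after curcumin and 29.8 to 35.8 in control, a separation seen for 14.6% of all genes and, with higher values, for 7.41%.

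The combination lowered Tef against control and against curcumin alone. In each comparison Tef was the 1 member called of 10, where 4.86% of all genes were called against control (2.43% lower) and 0.851% against curcumin (0.491% lower). Against control, 6 members did not overlap: Bhlhe41 was higher, and Per3, Cry2, Nr1d2, Dbp and Tef were lower in every combination library, a separation seen for 32.1% of all genes (16.3% higher and 15.8% lower). Against curcumin, 8 did not overlap, where 37.1% of all genes did not (18.6% higher and 18.5% lower): Per1, Cry1 and Bhlhe41 stood higher and Per2, Per3, Cry2, Dbp and Tef lower.

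Against swimming alone, the combination lowered 6 of the 10 members: Per1, Per2, Cry2, Nr1d1, Nr1d2 and Tef. Over all genes, 6.66% were called in this comparison and 3.15% were called lower. The median over the 10 members was -0.55 on the log2 scale, against 0 over all genes tested. All members but Cry1 were lower in each combination library than in each swimming library (9 of 10), where 40.6% of all genes did not overlap and 20.2% did so with lower values. The comparisons with control share the control libraries, and the 3 comparisons of the combination share the combination libraries, so they are not independent of each other.

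**Figure D2:**
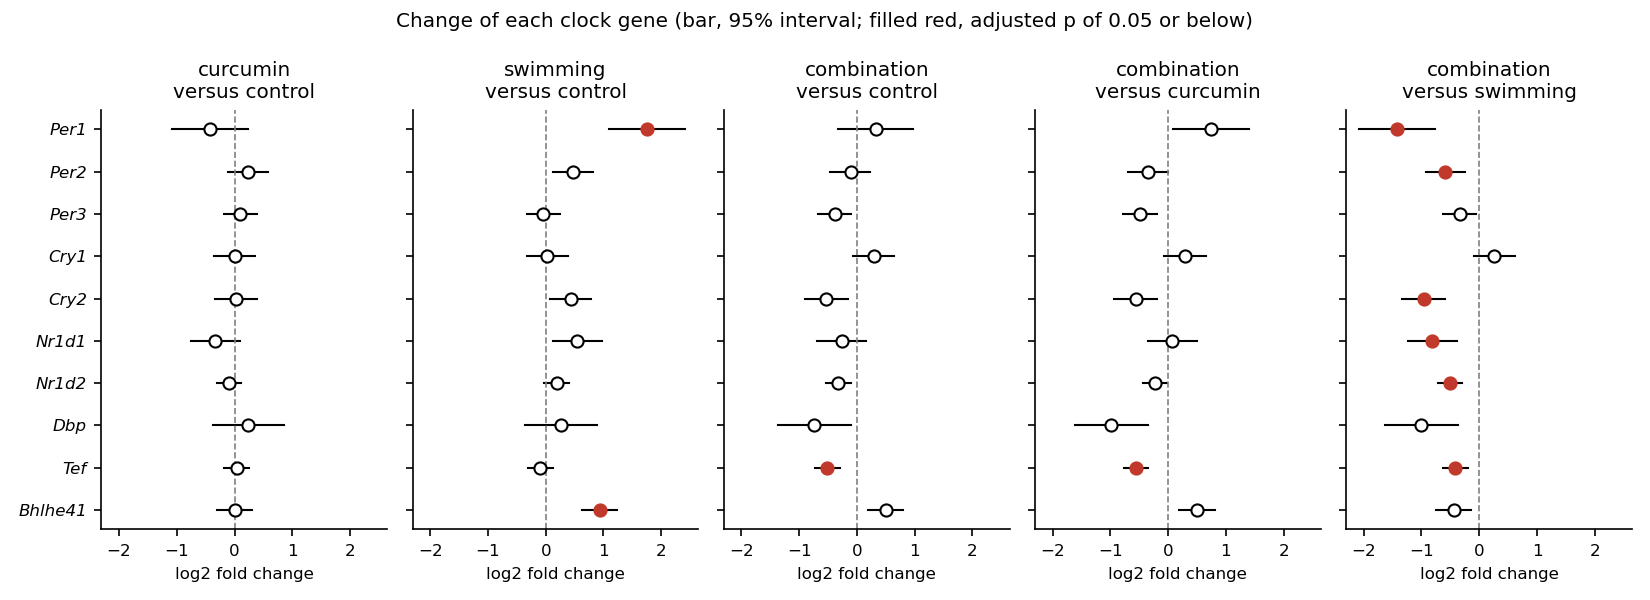
Log2 fold change of each clock gene (horizontal axis) in 5 comparisons (panels), with 95% intervals as bars. Filled red points passed an adjusted p of 0.05: Per1 and Bhlhe41 to the right for swimming versus control, Tef to the left for combination versus control and versus curcumin, and 6 genes to the left for combination versus swimming.

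The Period genes encode the repressors that build up and decay over the day. Per1 lies on the plus strand of chromosome 11 from base 68986043 to base 69000786 (ENSMUSG00000020893), in coordinates given as the deposited table holds them, whose build the sources state in 2 ways (mm9 and GRCm39). Per1 stood at 31.7, 85.9 and 71.2 CPM in the controls, 49.4, 47.1 and 44.5 after curcumin, 237, 152 and 248 after swimming and 80.4, 86.2 and 70.4 after the combination. The lowest swimming library was above the highest of the other 9, while control 1 was the lowest of all 12 and the controls overlapped both curcumin and combination. Swimming against control gave a rise of 1.75 ± 0.30 on the log2 scale (standard error), or 3.37-fold (adjusted p = 0.044). Against swimming, the combination fell by 1.43 on the log2 scale, or 2.69-fold (adjusted p = 0.024). Against control the combination stood at 0.33 ± 0.30 (adjusted p = 0.5), with a 95% interval of -0.33 to 0.98, and against curcumin at 0.75 ± 0.30 (adjusted p = 0.22).

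The rise of Per1 after swimming kept its direction without each library in turn, between 1.43 and 2.04. Its call held without control 1 (1.43), control 2 (2.04) or swimming 2 (1.95) and was lost without control 3, swimming 1, swimming 3 or any single curcumin or combination library (adjusted p 0.063 to 0.19), and in a fit of the compared groups alone (adjusted p = 0.52). The fall in the combination against swimming was lost without swimming 1, swimming 3 or any combination library (-1.61 to -1.3 over all libraries left out, adjusted p 0.077 to 0.096 where lost).

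Per2 lies on the minus strand of chromosome 1 from base 91343704 to base 91387046 (ENSMUSG00000055866). It stood at 35.8, 29.8 and 32.0 CPM in control, 37.0, 41.6 and 36.6 after curcumin, 48.9, 31.9 and 54.7 after swimming and 29.1, 31.0 and 30.2 after the combination. Swimming 2 fell among the controls, while swimming 1 and 3 were the highest of the 12. Swimming against control was 0.47 ± 0.16 (adjusted p = 0.24), and 0.67 (adjusted p = 0.045) without swimming 2. The combination fell against swimming by 0.59 on the log2 scale (adjusted p = 0.047), a call that held without control 1, control 2 or swimming 2 and was lost without any other library (changes of -0.78 to -0.43, adjusted p 0.056 to 0.16 where lost), and with DESeq2's size factors in edgeR (adjusted p = 0.051).

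Per3, on the minus strand of chromosome 4 from base 151088109 to base 151129122 (ENSMUSG00000028957), had 30.9, 27.2 and 41.3 CPM in control, 34.9, 36.8 and 34.8 after curcumin, 33.5, 32.4 and 30.5 after swimming and 26.1, 23.6 and 26.4 after the combination. The combination libraries were the 3 lowest of the 12. No comparison of Per3 passed the test: the combination stood at -0.38 ± 0.13 against control (adjusted p = 0.10), -0.49 ± 0.13 against curcumin (adjusted p = 0.097) and -0.34 ± 0.13 against swimming (adjusted p = 0.13). Without control 2 all 3 passed, at -0.51, -0.48 and -0.34 (adjusted p = 0.046, 0.028 and 0.045).

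The ratio of Per1 to Per2 in FPKM was 0.922, 3 and 2.31 in the controls, 1.39, 1.18 and 1.26 after curcumin, 5.03, 4.96 and 4.72 after swimming and 2.87, 2.89 and 2.43 after the combination. The swimming libraries were again above the other 9, and the curcumin libraries lay within the range of the controls. This ratio is a description and carries no test.

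The cryptochromes are the partners of the PER proteins and the stronger repressors of CLOCK and BMAL1, and each was measured in every library. Cry2, on the minus strand of chromosome 2 from base 92233991 to base 92264388 (ENSMUSG00000068742), stood at 12.3, 17.9 and 18.2 CPM in control, 16.8, 17.6 and 15 after curcumin, 20.8, 18.3 and 26.1 after swimming and 11.3, 11 and 11.1 after the combination. In CPM the combination libraries were the lowest of the 12 and the swimming libraries the highest. In FPKM the swimming libraries overlapped the controls (2.82 to 4.10 against 1.96 to 2.99). The combination fell against swimming by 0.96 on the log2 scale, or 1.95-fold (adjusted p = 0.012), and of the 12 libraries left out in turn only the combination libraries ended this call (adjusted p 0.053 to 0.072, changes of -1.07 to -0.81 over all libraries left out). Swimming against control was 0.43 ± 0.17 (adjusted p = 0.30). The combination stood at -0.53 ± 0.17 against control (adjusted p = 0.08) and -0.56 ± 0.17 against curcumin (adjusted p = 0.12). Against control it passed without control 1, the lowest control (-0.69, adjusted p = 0.015).

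Cry1, on the minus strand of chromosome 10 from base 84967564 to base 85020928 (ENSMUSG00000020038), stood at 18.4, 15 and 12.7 CPM in control, 14.1, 17.1 and 14.8 after curcumin, 13.1, 18.2 and 15.7 after swimming and 17.7, 17.7 and 21.0 after the combination. The groups overlapped in all comparisons but that of the combination with curcumin, and no comparison passed the test. Cry1 was the only member with a positive change in the combination against swimming (0.26 ± 0.16, adjusted p = 0.32, 95% interval -0.09 to 0.62). Against control the combination stood at 0.29 ± 0.16 (adjusted p = 0.27).

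Nr1d1 and Nr1d2 encode the REV-ERB receptors, heme-binding repressors of Arntl. Nr1d1, on the minus strand of chromosome 11 from base 98658758 to base 98666159 (ENSMUSG00000020889), stood at 36.2, 32.7 and 20.7 CPM in control, 21.6, 24.7 and 24.6 after curcumin, 48.1, 48.4 and 34.7 after swimming and 23.1, 29.0 and 22.4 after the combination. Swimming 1 and 2 were above all others, but swimming 3 lay within the range of the controls. Nr1d1 fell in the combination against swimming by 0.81 on the log2 scale, or 1.76-fold (adjusted p = 0.032). Swimming against control was 0.55 ± 0.19 (adjusted p = 0.26), and the combination against control was -0.26 ± 0.20 (adjusted p = 0.40). Thra overlaps the gene on the opposite strand, and the strand setting of the counting is not stated, so reads of the shared stretch cannot be told apart.

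Nr1d2, on the plus strand of chromosome 14 from base 4230569 to base 4265642 (ENSMUSG00000021775), had 97.0, 102 and 104 CPM in control, 98.8, 85.1 and 99.0 after curcumin, 102, 127 and 116 after swimming and 76.7, 77.3 and 87.9 after the combination. The swimming and control libraries overlapped. The combination fell against swimming by 0.51 on the log2 scale, or 1.42-fold (adjusted p = 0.016). Against control it stood at -0.32 ± 0.10 (adjusted p = 0.068), and swimming against control at 0.19 ± 0.10 (adjusted p = 0.45). The falls against swimming were lost for Nr1d1 without curcumin 3, swimming 1, swimming 2 or any combination library (-0.96 to -0.73 over all libraries left out, adjusted p 0.054 to 0.12 where lost) and for Nr1d2 without swimming 3, combination 1 or combination 2 (-0.59 to -0.43, adjusted p 0.057 to 0.081 where lost).

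Tef and Dbp encode the D-box activators of clock output. Tef, on the plus strand of chromosome 15 from base 81686622 to base 81711064 (ENSMUSG00000022389), stood at 57.8, 65.2 and 58.3 CPM in control, 62.7, 68.9 and 54.7 after curcumin, 56.0, 59.5 and 54.0 after swimming and 45.2, 40.1 and 41.7 after the combination. The combination libraries were below the other 9, which overlapped among groups. Tef was the 1 member called in the combination against each of the other groups, while Per3, Cry2 and Dbp were also lower there in every library without passing all 3 tests. Tef fell by 0.51 on the log2 scale against control (1.43-fold, adjusted p = 0.022), by 0.55 against curcumin (1.47-fold, adjusted p = 0.027) and by 0.42 against swimming (1.33-fold, adjusted p = 0.032). Swimming against control was -0.10 ± 0.10 (adjusted p = 0.75). Each of these calls was lost without any single combination library, and in the comparisons with curcumin and with swimming also without any library of that group (adjusted p 0.062 to 0.17 and 0.061 to 0.13, against 0.066 to 0.12 for control), while the changes ran from -0.64 to -0.37.

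Dbp, on the plus strand of chromosome 7 from base 45354512 to base 45359627 (ENSMUSG00000059824), was the lowest of the 10 in expression, with 38 to 150 counts per library. It stood at 6.18, 6.57 and 6.89 CPM in control, 7.48, 9.41 and 6.36 after curcumin, 8.17, 9.91 and 5.45 after swimming and 4.24, 2.30 and 5.25 after the combination. The combination libraries were again the 3 lowest, by a narrow margin from swimming 3. In the combination group, the differences of Dbp from each other group were the largest negative ones among the members that did not pass: -0.74 ± 0.29 against control (adjusted p = 0.14), -0.98 ± 0.29 against curcumin (adjusted p = 0.11) and -1 ± 0.29 against swimming (adjusted p = 0.059). Against swimming it passed without control 1 (adjusted p = 0.049) or control 2 (adjusted p = 0.029), with the change at -1 in each case.

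Bhlhe41, on the minus strand of chromosome 6 from base 145803969 to base 145811284 (ENSMUSG00000030256), encodes the E-box repressor DEC2. It stood at 23.6, 28.6 and 25.8 CPM in control, 27.2, 20.5 and 30.3 after curcumin, 54.8, 47.5 and 47.0 after swimming and 34.6, 40.8 and 34.8 after the combination. The 3 swimming libraries were above the 3 combination libraries, and these were above all 6 libraries of mice that did not swim. Swimming raised Bhlhe41 by 0.94 ± 0.14 on the log2 scale, or 1.91-fold (adjusted p = 0.022). The combination stood at 0.50 ± 0.14 against control (adjusted p = 0.057), 0.50 ± 0.14 against curcumin (adjusted p = 0.10) and -0.44 ± 0.14 against swimming (adjusted p = 0.073). The rise after swimming was lost without control 1, control 3, swimming 1, combination 1 or combination 3 (adjusted p 0.053 to 0.13, changes of 0.86 to 1.01 over all libraries left out) and in a fit of the compared groups alone (adjusted p = 0.22). Without control 2 the combination passed against curcumin (0.50, adjusted p = 0.047) and against swimming (-0.44, adjusted p = 0.033), and without curcumin 2 against control (0.50, adjusted p = 0.042) and against swimming (-0.44, adjusted p = 0.046).

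The 2 by 2 layout also allows each treatment to be averaged over the other. Averaged over curcumin, swimming raised Per1 (1.25 ± 0.21, adjusted p = 0.022) and Bhlhe41 (0.72 ± 0.10, adjusted p = 0.011) and lowered Tef (-0.33 ± 0.07, adjusted p = 0.036), 3 of 10 members where 2.03% of all genes were called and 0.946% were called higher. Averaged over swimming, curcumin lowered Per1 (-0.92 ± 0.21, adjusted p = 0.033), Cry2 (-0.47 ± 0.12, adjusted p = 0.04), Nr1d1 (-0.58 ± 0.14, adjusted p = 0.033) and Nr1d2 (-0.30 ± 0.07, adjusted p = 0.03), 4 of 10 where 6.49% were called and 3.34% were called lower. These averages joined effects with unlike estimates, whose difference did not pass in edgeR for any member (the interaction, given below). For Tef the effect of swimming was -0.10 ± 0.10 without curcumin and -0.55 ± 0.10 with it. The effect of curcumin without and with swimming was 0.03 ± 0.17 and -0.96 ± 0.17 for Cry2, and -0.42 ± 0.30 and -1.43 ± 0.30 for Per1. It was -0.34 ± 0.20 and -0.81 ± 0.20 for Nr1d1, and -0.10 ± 0.10 and -0.51 ± 0.10 for Nr1d2. Without swimming, 0 of the 10 were called for curcumin. Each of the 12 libraries was left out in turn, and each range in parentheses is over all 12 of these fits. Leaving out swimming 1 or combination 2 ended the averaged call of Bhlhe41 (0.65 to 0.78). For the effect of swimming, the call of Per1 held without any control, curcumin 1, swimming 2 or swimming 3 (1.09 to 1.4), and that of Tef without control 1, control 2 or swimming 2 (-0.37 to -0.29), and both were lost without each other library. For the effect of curcumin, Per1 held without control 1, control 3 or swimming 2 (-1.08 to -0.78), and Cry2 without control 1 or swimming 2 (-0.55 to -0.39), and both were lost without each other library. Nr1d1 held without any control, swimming 2 or swimming 3 (-0.68 to -0.49), and Nr1d2 without any control, curcumin 1, swimming 1 or swimming 2 (-0.34 to -0.26), with the same outcome for the others. Where a call was lost, the adjusted p was 0.052 to 0.12. The test of the difference in the effect of curcumin with and without swimming, the interaction, called 0 of 10 members in edgeR and 0 in limma voom, against 0.249% of all genes in edgeR. With DESeq2 it called Cry2 alone (-0.99, adjusted p = 0.025). In edgeR 8 of the 10 had an unadjusted p under 0.05, where 11% of all genes did, and 9 of the 10 interaction terms were negative, all but that of Cry1. They ran from -1.24 ± 0.41 (Dbp, adjusted p = 0.29) to -0.41 ± 0.14 (Nr1d2, adjusted p = 0.30) among the negative ones. The smallest adjusted p was that of Cry2 (-0.99 ± 0.24, adjusted p = 0.15).

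The activating side of the clock was read from 6 genes, of which 5 were tested (Rorb did not pass the filter on low counts). Arntl, which encodes BMAL1, was the 1 gene called: it rose in the combination against curcumin by 0.91 ± 0.18 (adjusted p = 0.039), where 0.851% of all genes were called. Arntl stood at 13.0, 15.2 and 10.8 CPM in control, 10.9, 11.9 and 8.48 after curcumin, 15.7, 11.6 and 16.4 after swimming and 18.9, 22 and 18.0 after the combination. The combination libraries were the 3 highest of the 12. The change was 0.60 ± 0.18 against control (adjusted p = 0.068) and 0.43 ± 0.18 against swimming (adjusted p = 0.14). Clock, its partner, was also highest in the combination, at 75.9 to 77.3 CPM against 54.1 to 70.5 in the other 9 libraries (0.31 ± 0.09 against control, adjusted p = 0.061). Npas2, a relative of Clock, stayed under 2 CPM in every library and stood at 1.41 ± 0.61 against control (adjusted p = 0.16), and the receptor gene Rora stood at 0.77 ± 0.29 (adjusted p = 0.12). Arntl2 stood at -0.22 ± 0.10 in curcumin against control (adjusted p = 0.45).

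Because Dbp and Arntl peak at opposite times of day in many tissues, their ratio was read in each library. The ratio of Dbp to Arntl in FPKM was 1.19, 1.09 and 1.60 in control, 1.73, 1.99 and 1.89 after curcumin, 1.31, 2.15 and 0.835 after swimming and 0.564, 0.262 and 0.735 after the combination. All 3 combination libraries were below the other 9, with swimming 3 the nearest. The ratio carries no test, and all libraries of a group may have been taken at the same hour, which cannot be told apart from an effect of the treatment.

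Of 10 further repressors and output genes, 9 were tested (Hlf was too low). Ciart, an E-box repressor whose promoter window holds 3 copies of CACGTG, fell in the combination against swimming by 1.34 on the log2 scale (adjusted p = 0.04), from 10.6 to 12.8 CPM down to 3.09 to 5.63. It was the 1 gene of the 9 called in any of the 5 comparisons between groups, and 3.15% of all genes were called lower in the combination against swimming. Wee1 was called higher for swimming averaged over curcumin (0.39 ± 0.09, adjusted p = 0.045 in edgeR), as 1 of the 9, where 0.946% of all genes were. Swimming against control left 4 of the 9 at an unadjusted p under 0.05, where 13% of all genes were, and none called: Bhlhe40, the sister gene of Bhlhe41, at 0.69 ± 0.18 (adjusted p = 0.14), the cell cycle kinase Wee1 at 0.57 ± 0.13 (adjusted p = 0.088), Nampt, which makes an NAD precursor, at 0.33 ± 0.10 (adjusted p = 0.17), and Noct at 0.45 ± 0.19 (adjusted p = 0.33). Bhlhe40 stood at 405 to 468 CPM after swimming against 177 to 334 in control, without overlap, and at 277 to 324 in the combination. Against swimming the combination stood at -0.57 ± 0.18 for Bhlhe40 (adjusted p = 0.072), -0.60 ± 0.20 for the D-box repressor Nfil3 (adjusted p = 0.084) and 0.75 ± 0.30 for Usp2 (adjusted p = 0.13). Timeless and Tipin, which act together at the replication fork, stood at 0.53 ± 0.15 (adjusted p = 0.06) and 0.43 ± 0.17 (adjusted p = 0.13) in the combination against control, where Wee1 stood at 0.46 ± 0.13 (adjusted p = 0.056). In curcumin against control they stood at 0.44 ± 0.15 (adjusted p = 0.37) and 0.41 ± 0.17 (adjusted p = 0.41). Control 2 was the lowest of the 12 libraries for Timeless (24.3 CPM), Tipin (23.0 CPM) and Wee1 (33.3 CPM).

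**Figure D3:**
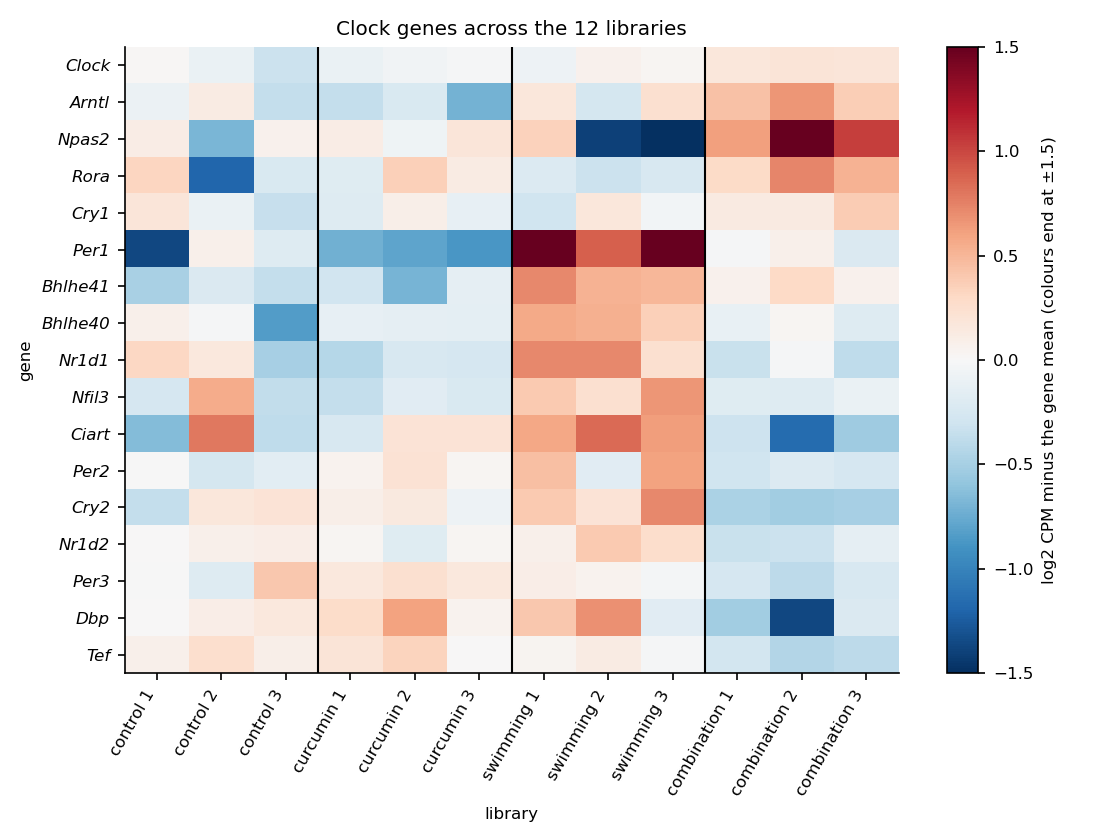
Log2 CPM of 17 clock genes (rows) in the 12 libraries (columns), each row centred on its mean over the libraries, with red above and blue below the mean and colours ending at the values on the bar. The combination columns are red for Clock, Arntl, Npas2 and Rora and blue for Cry2, Nr1d2, Per3, Dbp and Tef, and the swimming columns are red for Per1, Bhlhe41, Bhlhe40, Nr1d1, Nfil3 and Ciart.

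Genes of other inputs to Per1 and Bhlhe41 were read beside them. The 12 glucocorticoid targets, such as Tsc22d3, Klf9 and Fkbp5, summed to 1650 to 1770 CPM after swimming, 1000 to 1440 in control, 974 to 1050 after curcumin and 1230 to 1270 after the combination, with Mt2 listed at 0 in every library. Errfi1 gave the largest part of this sum, with a mean of 587.6 CPM after swimming and 437.5 in control. In the sum the swimming libraries were above the other 9, as they were for Per1. The same held for the summed hypoxia genes given below. It also held for the sum of the 10 further repressors and output genes (987 to 1010 CPM after swimming, at most 824 in the other groups). Of the 11 tested, 9 were positive in swimming against control and 6 had an unadjusted p under 0.05, where 13% of all genes did, but edgeR called 0: Tsc22d3 stood at 0.82 ± 0.17 (adjusted p = 0.079), Errfi1 at 0.43 ± 0.09 (adjusted p = 0.081) and Klf9 at 0.96 ± 0.27 (adjusted p = 0.17). Fkbp5 stood at 0.23 ± 0.15 (adjusted p = 0.55). The 2 negative genes were Pdk4 (-1.52 ± 0.76, adjusted p = 0.44) and Cebpd (-0.01 ± 0.21, adjusted p = 0.99). Averaged over curcumin, swimming raised 4 of the 11, where 0.946% of all genes were called higher: Tsc22d3 (0.63 ± 0.12, adjusted p = 0.028), Sgk1 (0.53 ± 0.12, adjusted p = 0.049), Klf9 (0.91 ± 0.19, adjusted p = 0.04) and Errfi1 (0.36 ± 0.06, adjusted p = 0.022). Averaged over swimming, curcumin lowered 2 of the 11, where 3.34% of all genes were called lower: Errfi1 (-0.36 ± 0.06, adjusted p = 0.018) and Ddit4 (-0.77 ± 0.16, adjusted p = 0.024). Against swimming, the combination lowered 2 of the 11, where 3.15% of all genes were called lower: Ddit4 (-1.28 ± 0.22, adjusted p = 0.014) and Errfi1 (-0.43 ± 0.09, adjusted p = 0.022). Over all 11 the median change in that comparison was -0.47, against 0 over all genes.

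The 12 hypoxia genes summed to 2850 to 3320 CPM after swimming, 1390 to 2810 in control, 1930 to 2380 after curcumin and 1760 to 1780 after the combination. In swimming against control all 12 were positive, 8 had an unadjusted p under 0.05, against 13% of all genes, and edgeR called 0. In the combination against swimming all 12 were negative and 7 were called lower, against 3.15% of all genes, among them the glycolytic gene Pgk1 (-0.64 ± 0.13, adjusted p = 0.02), the glucose transporter gene Slc2a1 (-0.88 ± 0.22, adjusted p = 0.04) and the pyruvate dehydrogenase kinase gene Pdk1 (-1 ± 0.14, adjusted p = 0.006). Bhlhe40 and Bhlhe41 are known to respond to hypoxia as well as to the clock. The part of glucocorticoid and hypoxia genes in the results on Per1 and Bhlhe41 was not tested.

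The 10 cAMP and immediate early genes summed to 1190 to 1290 CPM after swimming, 964 to 1470 in control, 927 to 1020 after curcumin and 1140 to 1250 after the combination. Fosb and Nr4a1 rose in the combination against control (1.85 ± 0.31, adjusted p = 0.019, and 0.99 ± 0.15, adjusted p = 0.0095) and against curcumin (1.89 ± 0.31, adjusted p = 0.027, and 1.29 ± 0.15, adjusted p = 0.0039). Over all genes, 4.86% were called in the combination against control and 0.851% against curcumin. Nr4a1 also rose in the combination against swimming (0.69 ± 0.14, adjusted p = 0.021), where 6.66% of all genes were called. Sik1, a kinase gene induced through CREB, fell in the combination against swimming (-0.66 ± 0.16, adjusted p = 0.035), with 101 to 123 CPM after swimming, 54.0 to 94.5 in control, 56.3 to 60.6 after curcumin and 65.2 to 74.3 after the combination. In swimming against control edgeR called 0 of the 10, and 2 had an unadjusted p under 0.05, where 13% of all genes did: Sik1 (0.65 ± 0.16, adjusted p = 0.12) and Fosb (0.88 ± 0.31, adjusted p = 0.28). Averaged over curcumin, swimming raised 2 of the 10, where 0.946% of all genes were called higher: Fosb (1.38 ± 0.22, adjusted p = 0.022) and Nr4a1 (0.79 ± 0.10, adjusted p = 0.0085). Averaged over swimming, curcumin lowered Sik1 (-0.47 ± 0.11, adjusted p = 0.035), where 3.34% were called lower.

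**Figure D4:**
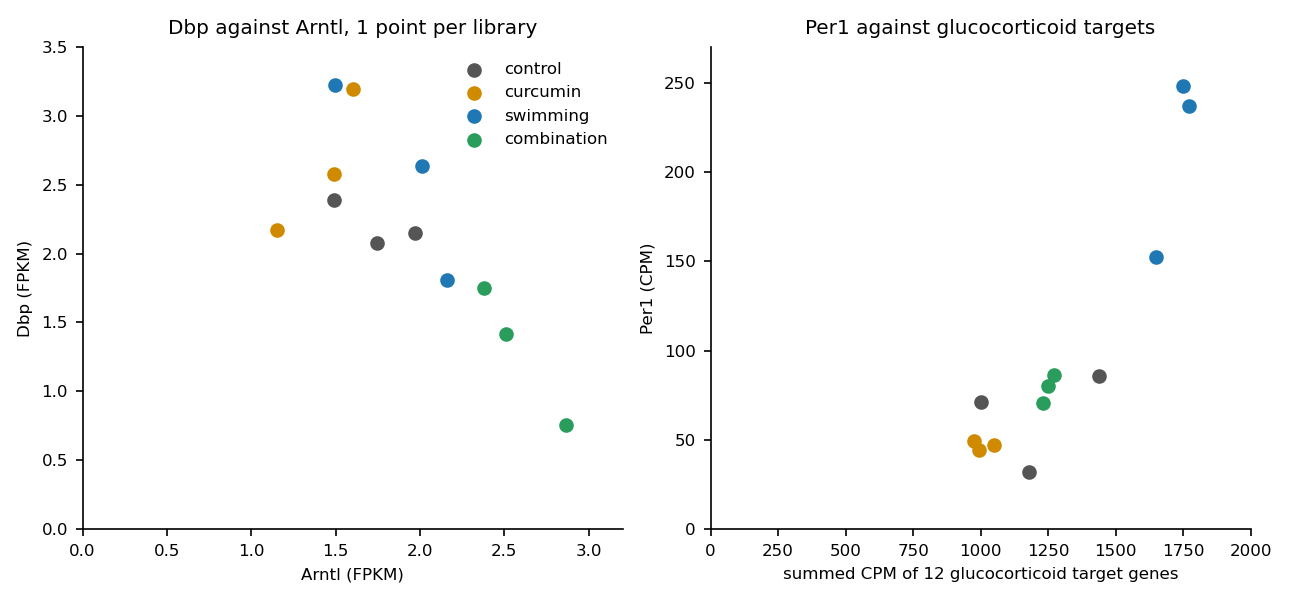
Left, Dbp against Arntl in FPKM, and right, Per1 in CPM against the summed CPM of the 12 glucocorticoid targets, with 1 point per library coloured by group and axes from 0. The combination libraries lie at the lower right of the left panel (Dbp at most 1.75, Arntl at least 2.38 FPKM), and the swimming libraries at the upper right of the right panel (at least 152 CPM of Per1).

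Some members varied together across the 12 libraries and others ran against each other, which is described here without a test since libraries of a group share their treatment. The highest pair was Per1 and Bhlhe41, with a Pearson r of 0.88 over the 12 libraries, and 0.38 once each group's mean was removed. Dbp and Tef came next (0.83, and 0.59 within groups). Cry1 ran against Cry2 (-0.62, and -0.5 within groups) and against Per3 (-0.62, and -0.34 within groups), and Per1 and Dbp stood at 0.03. Per3 ran against Arntl (-0.84, and -0.55 within groups). Among 10806 genes of at least 5 CPM on average, the genes whose log2 CPM was most like that of Per1 over the 12 libraries were H1f0 (0.958), Mtfr1l (0.954) and Dip2a (0.953). Those most like Bhlhe41 were Ccbe1 (0.959), Runx1 (0.95) and Il1r2 (0.943). Tef was followed by Pdia6, Mcfd2 and Csk (0.949 to 0.951), Cry2 by Rtf2 (0.955) and Nr1d2 by Pdhb (0.935). Nr1d1 was followed by 2 hypoxia genes among its nearest 3, Slc2a1 (0.905) and Adm (0.887). The nearest gene of Dbp was Src (0.895), that of Per3 was Nacc2 (0.897) and that of Cry1 was Jade1 (0.923).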

How the data were processed

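RNA sequencing of 12 tumour libraries in 4 groups of 3 was taken from a gene table of 21899 genes. The submitters' processing notes list cutadapt, TopHat2, HISAT2, HTSeq 0.9.1, DESeq 1.30.0 and build GRCm39, while the protocol in the labels names mm9. The deposited counts are raw whole read counts per gene. The deposited FPKM values are the authors' counts per gene length and library total: all 184877 values that exceed 0 came out again from counts and lengths (relative tolerance 1e-05). Strand setting and the handling of shared reads are not given in the sources used here.

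Genes were filtered with filterByExpr (minimum count 10, minimum total 15) and 13638 were tested. Counts were scaled by TMM and fitted on all 12 libraries with edgeR 4.0.16 in R 4.3.3 (quasi-likelihood F-test, robust prior spread, 8 residual degrees of freedom), with Benjamini-Hochberg adjustment over all genes tested and 8 comparisons. CPM in the text uses TMM-scaled totals; log2 CPM used a prior count of 2. A floor of 3 counts equals 0.175 to 0.201 CPM, for counting error only. Sample titles gave the groups, as the treatment label omits swimming. The named genes are the 10 members in every comparison, and from the other lists those called or at an unadjusted p under 0.05; where a list has many such genes, examples are given. Some genes that these rules cover are not reported here, and counts over the lists leave them out. The members and lists were chosen with earlier results of these data known. Promoter windows come from RefSeq (GRCm38.p6), matched by symbol for 9 of 10 members. Alternatives were RLE and upper quartile scaling, a mean count minimum of 50 or no filter, DESeq2 1.42.0, limma 3.58.1 (voom with a weight per group), only the compared groups, a replicate block, combination libraries summed and leaving out each library; a prior spread that is not robust was added after the results were seen. The fit was tested on simulated data.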

Additional observations from a re-analysis of the deposited data

Results flagged for a closer look

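For Cry2 in CPM, the libraries of the groups that swam lay on opposite sides of their comparison groups with and without curcumin, although neither comparison passed the test (adjusted p = 0.30 and 0.12 in edgeR). Every swimming library was above every control library (18.3 to 26.1 against 12.3 to 18.2 CPM), and every combination library was below every curcumin library (11 to 11.3 against 15 to 17.6 CPM). The gap between swimming and control was narrow and rested on the scaling, since in FPKM these groups overlapped (2.82 to 4.10 against 1.96 to 2.99). The interaction that tests this difference was -0.99 ± 0.24 on the log2 scale, with an adjusted p of 0.15 in edgeR. It passed with DESeq2 (adjusted p = 0.025) and without control 2 (-1.07, adjusted p = 0.032).

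For Per2, the libraries of the groups given curcumin lay on opposite sides of their comparison groups with and without swimming. Curcumin against control did not pass (0.24 ± 0.16, adjusted p = 0.58 in edgeR), and the combination against swimming did. Every curcumin library was above every control library (36.6 to 41.6 against 29.8 to 35.8 CPM), and every combination library was below every swimming library (29.1 to 31.0 against 31.9 to 54.7 CPM). Its interaction was -0.82 ± 0.23 with an adjusted p of 0.20 in edgeR, and it passed without swimming 2, the lowest swimming library (-1.02, adjusted p = 0.02). Both genes were picked from 10 by this pattern, after their values were seen.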

How the results depend on the processing

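No change of a called member reversed under any alternative: over the 10 members, 8 comparisons and all alternatives, 1548 results kept their side of the threshold, 140 lost a call and 42 gained one. Most of these results were not called in the main fit and could not lose a call. The 140 therefore come from a much smaller number of results, those of the members called in the main fit. The count of members called moved as follows. In swimming versus control it went from 2 to 1 with no filter and to 0 with limma voom, with only the groups compared, with the replicate block and with the combination libraries summed into 1 (0 to 3 leaving out each library). In combination versus control it went from 1 to 4 with DESeq2 and to 0 with only the groups compared or the libraries summed (0 to 3 leaving out each). In combination versus curcumin it went from 1 to 4 with DESeq2, 6 with limma voom, 7 with only the groups compared, and 0 with the block or the libraries summed (0 to 3). In combination versus swimming it went from 6 to 0 with the libraries summed (0 to 9), and 9 members were called without control 2; the call of Per2 there was lost with RLE scaling (adjusted p = 0.051), with only the groups compared (0.051) and with the block (0.075). The interaction went from 0 to 1 with DESeq2 (0 to 1). Swimming averaged over curcumin went from 3 to 1 with the block and 0 with the libraries summed (0 to 4), with Tef also lost with limma voom (adjusted p = 0.053), and curcumin averaged over swimming from 4 to 1 and 0 (0 to 5), with Per1 also lost with no filter (0.053). Curcumin versus control stayed at 0 throughout. Summing leaves the combination 1 sample, assumed to vary like the other groups. Same-numbered libraries did not deviate together (2 of 18 pairs above a correlation of 0.1, range -0.25 to 0.16), so no pairing by replicate number was seen. With 3 libraries per group this check cannot exclude that same-numbered libraries shared a batch. With the replicate block Per1 in swimming versus control was 1.79 (adjusted p = 0.096), Bhlhe41 0.94 (0.065), Tef in combination versus curcumin -0.55 (0.054) and in combination versus control -0.51 (0.038). The causes of these shifts were not tested. The scalings moved the median of all genes to at most -0.035. Depth limits Dbp most, at 38 to 150 counts per library.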

Other observations

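The enzymes that mark clock proteins for decay or change their activity were read from 8 genes, all tested (Csnk1d, Csnk1e, Fbxl21, Fbxw11, Btrc, Gsk3b, Sirt1 and Prmt5). None was called in edgeR in any of the 5 comparisons between groups. Unadjusted p-values under 0.05 were seen for Btrc in curcumin versus control (-0.23 ± 0.11), Gsk3b in swimming versus control (0.22 ± 0.09), Sirt1 (0.28 ± 0.09) and Prmt5 (0.16 ± 0.07) in combination versus curcumin, and Fbxl21, which acts on the cryptochromes, in combination versus swimming (-1.44 ± 0.47, adjusted p = 0.078). Curcumin averaged over swimming was negative for 8 of the 8, with 2 at an unadjusted p under 0.05 and 0 called, where 6.49% of all genes were called.

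Of 5 reference genes, Gapdh stood at 0.67 ± 0.16 in swimming versus control (adjusted p = 0.12) and -0.51 ± 0.16 in combination versus swimming (adjusted p = 0.073).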
